A study of Mus musculus with 3 samples.

Results

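The regulators of epithelial-mesenchymal transition (EMT) described here are 10 genes, Snai1, Snai2, Twist1, Twist2, Zeb1, Zeb2, Prrx1, Ovol1, Esrp1 and Grhl2, chosen by symbol from the 22757 named genes of the deposited table, and all 10 were found there. The RNA-seq values come from 3 pancreatic tumour cell lines of the mouse HI-Panc progression model, 1 library each, labelled localized, invasive and metastatic. Per the labels, all 3 lines were grown from transgenic mouse tumours, carry the genotype p16-/- and were not immortalized. A further engineered allele that the lines share is not reported here. The cells grew in DMEM with 10% fetal bovine serum. The treatment text, shared by the 3 samples, describes cobalt chloride at 100 ng/ml for 24 h and does not say whether these cells received it. Each stage is thus a single line and a single library (n = 1), so no value below has a replicate check, no p-value is given, and every comparison is between these libraries rather than between stages. The tissue label of the localized library is body wall, that of the invasive library is pancreatic tissue and that of the metastatic library is liver, which for the first and second is the reverse of what the stage names lead one to expect. If the first 2 lines had been exchanged, each direction between them would turn round, and the comparisons of the metastatic library with each of them would change places.

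EMT is the process in which epithelial cells lose their junctions and polarity and gain the motility and matrix production of mesenchymal cells. Snail (Snai1, Snai2), Zeb (Zeb1, Zeb2) and Twist (Twist1, Twist2) transcription factors and the homeobox factor Prrx1 drive it, in large part by repressing epithelial genes such as Cdh1. The zinc-finger factor Ovol1, the Grainyhead-like factor Grhl2 and the splicing regulator Esrp1 act on the epithelial side. In pancreatic cancer these programmes are studied for their link to invasion and spread, and tumour cells often hold intermediate states.

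Levels are in FPKM (fragments per kilobase of transcript, scaled to library depth) after subtraction of the 0.1 that every deposited value carries. Where 3 values stand in a row, they are in stage order, localized, then invasive, then metastatic. All 22757 named genes together, with the short RNA genes that were left out of the counts, gave 572661, 575446 and 565287 FPKM. Steps of whole fragments in low values gave estimated depths of 45700000, 40900000 and 43500000 fragments. From these depths, an estimated number of fragments was set behind each value, and ratios carry an exact 95% interval that covers counting error only. The 10 housekeeping genes of the list used here were all within 2-fold between any pair of libraries. The labelled pancreatic tumour origin was set against marker lists. Of 8 epithelial markers, 4, 7 and 6 reached 1 FPKM in the localized, invasive and metastatic libraries, and their levels summed to 1195, 5690.5 and 5732 FPKM. Most of each sum, in the localized library too, came from the keratins Krt8 (765, 2356 and 2247 FPKM), Krt18 (227, 1135 and 977 FPKM) and Krt19 (181, 1970 and 2365 FPKM). Cldn7 (0.676, 1.33 and 0.244 FPKM) and Cldn4 (0.0134, 0.0891 and 0.0141 FPKM) were low or close to 0 in every library. Of 10 fibroblast markers, 9, 4 and 4 reached 1 FPKM, with sums of 570.2, 90.5 and 14.0 FPKM. Of the 7 immune markers in the table only Cd68 reached 1 FPKM, no endothelial marker did, and of 6 acinar markers only Cela1 did, with 7.24, 1.13 and 0.323 FPKM.

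The 10 regulators fell into 3 kinds of pattern. Snai1, Twist1 and Prrx1 were far higher in the localized library than in the other libraries. Snai2, Twist2, Zeb1 and Zeb2 were present in all 3 libraries and were not called at 2-fold in any pair. Ovol1, Esrp1 and Grhl2 were under 1 FPKM in every library. This includes the invasive and metastatic libraries, in which the summed epithelial markers, mostly keratins, were higher than in the localized library.

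**Figure D1:**
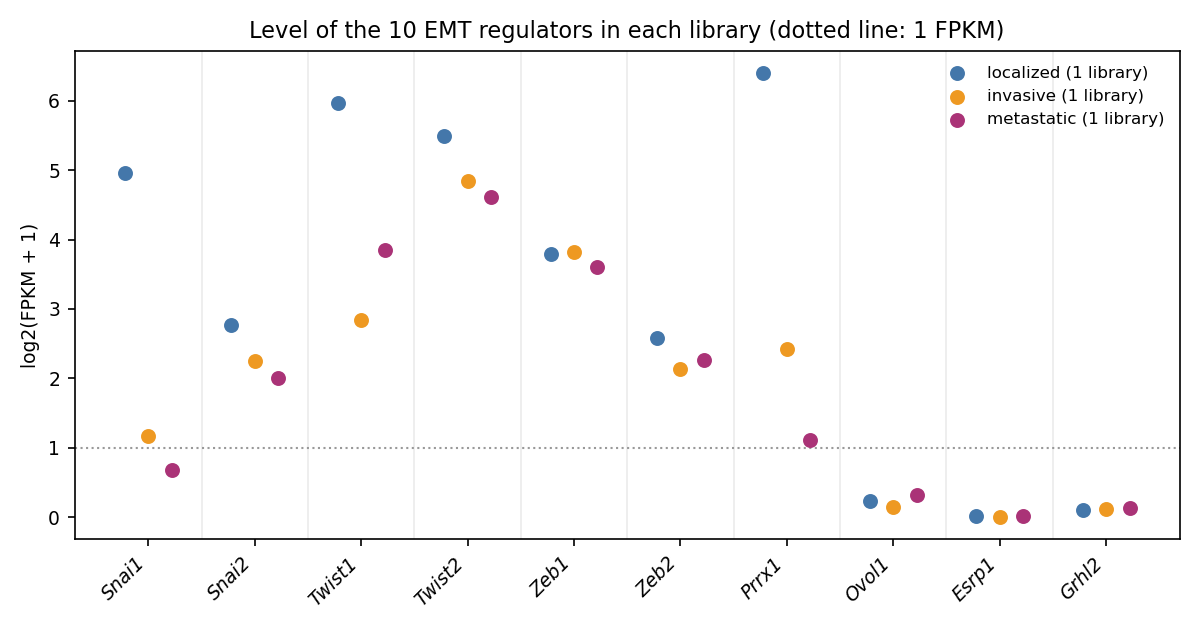
Level of each of the 10 regulators as log2(FPKM + 1), with 1 point for each of the localized, invasive and metastatic libraries and a dotted line at 1 FPKM. Snai1, Twist1 and Prrx1 have their localized point far above the other points, the points of Zeb1 lie together, and Ovol1, Esrp1 and Grhl2 lie under the line in all 3 libraries.

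For counts, a gene was used if its 3 values averaged 1 FPKM or more (11404 genes), and it was called at a difference of at least 1 in log2(FPKM + 1), which is 2-fold and understates the change of low genes. Of the 10 regulators, 7 passed this filter and Ovol1, Esrp1 and Grhl2 did not. Snai1 passed through its localized value, since its invasive and metastatic values averaged under 1 FPKM. Passing thus put its localized value above that average but did not set the size of the difference. Without Snai1, 6 regulators are counted. In the invasive against the localized library 3 regulators (2 without Snai1) were called lower and 0 higher, where 6.07% of all genes were called lower and 8.78% higher. In the metastatic against the localized library 3 (2 without Snai1) were again lower and 0 higher, where 7.29% of all genes were lower and 9.08% higher. These comparisons share the localized library. In the metastatic against the invasive library 1 regulator, Twist1, was higher and 1, Prrx1, was lower, where 1.33% of all genes were higher and 1.67% lower. The median difference over the 7 that passed was -0.66, -0.88 and -0.22 in these 3 comparisons, and over all genes it was -0.0014, 0.0041 and -0.0086.

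**Figure D2:**
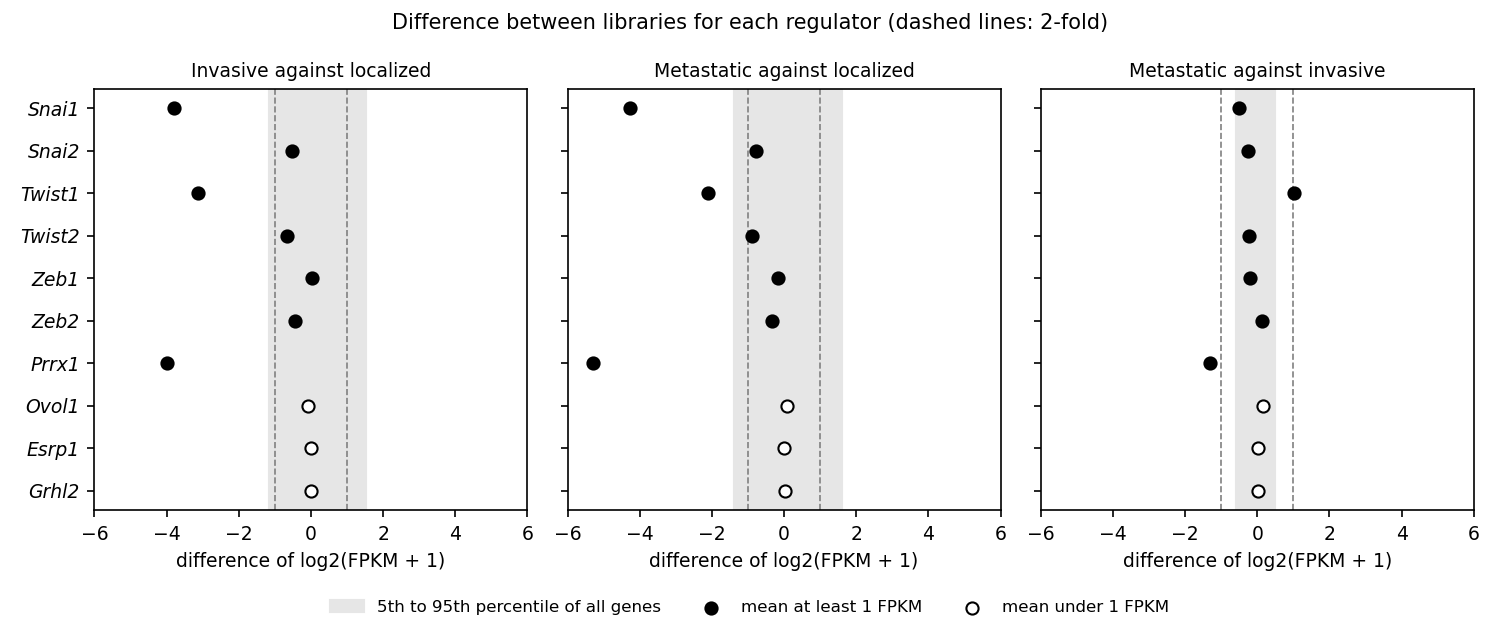
Difference of log2(FPKM + 1) for each regulator in the 3 pairs of libraries, with filled points for a mean of at least 1 FPKM, open points below that, dashed lines at 2-fold and a grey band from the 5th to the 95th percentile of all genes counted. Snai1, Twist1 and Prrx1 lie left of the band in both comparisons with the localized library, and Twist1 lies right of it and Prrx1 left of it for metastatic against invasive.

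Snai1, the zinc-finger repressor Snail, is a direct repressor of Cdh1 and acts early in EMT (ENSMUSG00000042821.7, GRCm38 chr2:167538195-167542814, plus strand). It had 30.2 FPKM in the localized, 1.26 FPKM in the invasive and 0.605 FPKM in the metastatic library, from an estimated 1975, 74 and 38 fragments. The localized library was thus the only one in which Snai1 was abundant, and 87.0% of all genes lay below it there, against 52.0% and 49.0% in the invasive and metastatic libraries. The ratio of invasive over localized was 0.0417 (counting interval 0.0325 to 0.0524), and that of metastatic over localized was 0.0200 (0.0142 to 0.0277). Metastatic over invasive was 0.481 (0.319 to 0.726), a difference of -0.49 on the log2(FPKM + 1) scale and so not called at 2-fold on that scale. Its relative Snai2, known as Slug, is also a repressor of epithelial genes (chr16:14705852-14709385, plus strand). It had 5.82, 3.75 and 2.999 FPKM in stage order, the same order with a much smaller span. Its ratio was 0.643 (0.554 to 0.747) for invasive over localized and 0.515 (0.441 to 0.604) for metastatic over localized, both called within 2-fold. Snai1 made up 83.8% of the summed level of the pair in the localized library, with 25.1% and 16.8% in the invasive and metastatic libraries. Snai3, the remaining member of the family, had 0.124, 0.0688 and 0.212 FPKM.

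Twist1 and Twist2 are basic helix-loop-helix factors that act as dimers and were both among the more abundant regulators. Twist1 (chr12:33957671-33959829, plus strand) had 61.9 FPKM in the localized, 6.13 in the invasive and 13.5 FPKM in the metastatic library. It was the regulator with its lowest value in the invasive library and a called difference on either side. The ratio of invasive over localized was 0.0991 (0.0887 to 0.1103), that of metastatic over localized 0.218 (0.202 to 0.235) and that of metastatic over invasive 2.198 (1.94 to 2.49). The last of these is a difference of 1.02 on the log2 scale, just past the threshold of 1. Twist2 (chr1:91801461-91848028, plus strand), also known as Dermo1, had 44.3, 27.7 and 23.5 FPKM in stage order and was within 2-fold in every pair. Its differences were -0.66 in the invasive and -0.88 in the metastatic against the localized library. Twist2 was the most abundant of the 10 in the invasive and metastatic libraries, but not in the localized library. Genes annotated on the opposite strand overlap 7 of the 10 regulators, Twist2 and Prrx1 included, but not Snai1, Snai2 or Twist1, and whether the counting used strand is not known from the sources used here.

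Twist factors pair with E proteins (Tcf3, Tcf4, Tcf12), and the Id proteins compete for those partners. Of the 7 listed genes of this group, 6 passed the filter. For invasive against localized 1 was lower, and for metastatic against localized 3 were lower, with 0 higher in either. Over all genes, 6.07% and 7.29% were lower in these comparisons. Id3 had 297 FPKM in the localized, 70.2 in the invasive and 37.0 FPKM in the metastatic library, the largest span of the group. Id1 had 204, 172 and 89.8 FPKM, and Tcf4 had 16.1, 8.22 and 6.09 FPKM. Tcf3 (64.8, 64.1 and 52.2 FPKM) and Tcf12 (27.4, 25.9 and 21.7 FPKM) were within 2-fold, as was Id2 (56.5, 86.2 and 66.3 FPKM).

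Zeb1 and Zeb2 are zinc-finger homeodomain repressors that hold epithelial genes silent and are themselves held down by the miR-200 microRNAs, which were not analysed here. Zeb1 had 12.9 FPKM in the localized, 13.1 in the invasive and 11.2 FPKM in the metastatic library. The ratio of invasive over localized was 1.02 (0.970 to 1.07), the closest to equal among the 7 regulators that passed the filter, and that of metastatic over localized was 0.872 (0.828 to 0.917). Zeb2 (chr2:44983632-45117395, minus strand) had 5.0, 3.41 and 3.79 FPKM in stage order. Its largest difference was -0.44, for invasive against localized. Zeb2os, which is annotated antisense to Zeb2 and may share reads with it, had 0.634, 0.605 and 0.614 FPKM. The Zeb genes together summed to 17.9, 16.5 and 15.0 FPKM, of which Zeb1 gave 72.0%, 79.4% and 74.7%. Cdh1, which Zeb1 represses in many epithelial cells, had 20.7 FPKM in the localized, 218 in the invasive and 118 FPKM in the metastatic library. The ratio of invasive over localized for Cdh1 was 10.6 (10.2 to 10.9). Zeb1 protein was not measured, and the part of Zeb1 or of any other regulator in the difference of Cdh1 was not tested.

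Prrx1 is a paired-related homeobox factor of mesenchyme that cooperates with Twist1 in EMT and has isoforms that gene-level values cannot separate (chr1:163245119-163313710, minus strand). It had the widest span of the 10, with 83.7 FPKM in the localized, 4.34 in the invasive and 1.16 FPKM in the metastatic library. Each step was past 2-fold, with ratios of 0.0519 (0.0488 to 0.0551) for invasive over localized and 0.268 (0.236 to 0.304) for metastatic over invasive. For metastatic against localized the difference was -5.29, the lowest but 13 of 11404 genes. Its relative Prrx2 had 78.8, 30.3 and 13.1 FPKM and followed the same order, with ratios of 0.385 (0.363 to 0.408) for invasive over localized and 0.432 (0.395 to 0.473) for metastatic over invasive. Prrx1 thus made up 51.5% of the summed level of the pair in the localized library, with 12.5% and 8.16% in the invasive and metastatic libraries.

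Summed over the 7 inducers, the level was 244 FPKM in the localized, 59.7 in the invasive and 56.8 FPKM in the metastatic library. Prrx1 gave 34.3% of the sum in the localized library, Twist1 25.4%, Twist2 18.2% and Snai1 12.4%. In the invasive library Twist2 gave 46.4% and Zeb1 21.98%. In the metastatic library Twist2 gave 41.4%, Twist1 23.7% and Zeb1 19.7%. The localized library therefore differed from the others both in the amount and in the makeup of its inducers.

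**Figure D3:**
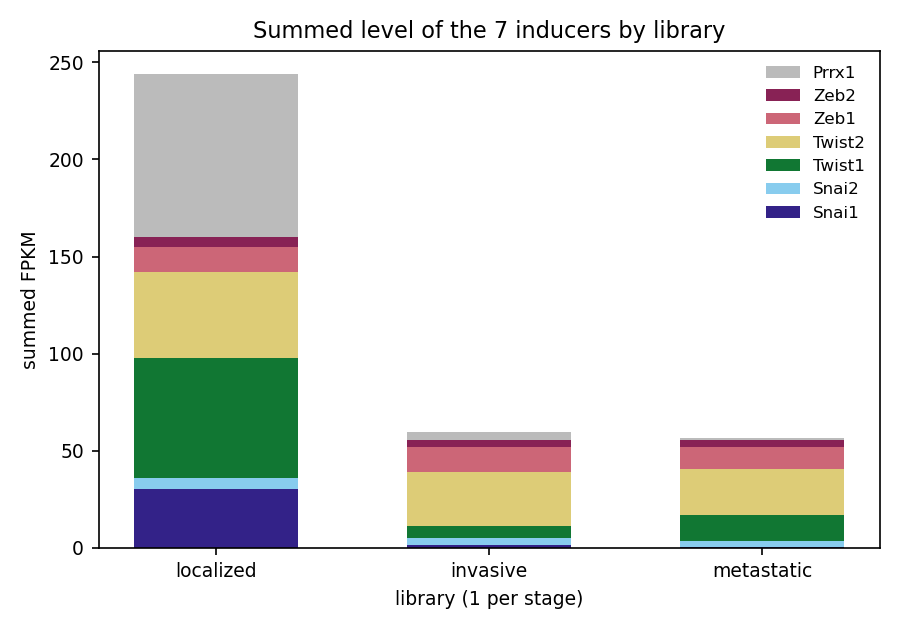
Summed FPKM of Snai1, Snai2, Twist1, Twist2, Zeb1, Zeb2 and Prrx1 in the localized, invasive and metastatic libraries, with 1 bar for each library and 1 colour for each gene. The localized bar reaches 244 FPKM, with its largest parts from Prrx1 and Twist1, and the other bars reach 59.7 and 56.8 FPKM, with Twist2 as the largest part.

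Fibroblast markers were lower in both comparisons with the localized library, as were Snai1, Twist1 and Prrx1. For metastatic against invasive, where Twist1 was called higher, 2 of the 7 counted markers were called lower and 0 higher. The shares of all genes there were 1.67% lower and 1.33% higher. Without a threshold, 3 of the 7 were above 0 and 4 below. Pdgfra (42.7, 1.09 and 1.97 FPKM in stage order) and Pdgfrb (8.37, 0.838 and 1.84 FPKM) had the same order as Twist1. Of the 10 fibroblast markers 7 passed the filter, and all 7 were called lower in the invasive than in the localized library and lower in the metastatic than in the localized library. Over all genes, 6.07% and 7.29% were lower in these comparisons. For 2 of the 7 the invasive and metastatic values averaged under 1 FPKM, so they passed through the localized library and had to be lower, and the other 5 were lower in both comparisons. Their summed levels are given above, with 0, 1 and 3 of the 10 at 0 in the localized, invasive and metastatic libraries, and Fap was at 0.043, 0.038 and 0 FPKM. Their part in the differences of the regulators was not tested. In a bulk library, fewer cells of a kind and less RNA per cell cannot be told apart, and the same holds for a mixture of cells in different states.

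The genes nearest in pattern were found by the distance between the 3 values of log2(FPKM + 1), each minus the gene's own mean, among 10790 genes without predicted names. With 3 libraries this describes shape only. For Snai1 the nearest were Olfml3 (distance 0.04 on the log2 scale; 21.4, 0.623 and 0.118 FPKM in stage order), Mmp3 (0.07) and Col6a2 (0.10). For Twist1 they were Emb (0.13; 12.2, 0.615 and 1.90 FPKM), Penk (0.16) and Cd34 (0.19), each with a lower value in the invasive than in the metastatic library. For Prrx1 they were Col6a3 (0.12; 44.0, 1.87 and 0.0474 FPKM), Esm1 (0.14) and Cspg4 (0.19). Mmp3 is a stromelysin that degrades matrix, and Col6a2 and Col6a3 are chains of collagen VI.

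Of 15 further EMT inducers, 11 passed the filter. For invasive against localized 3 were lower and 1 higher, and for metastatic against localized 5 were lower and 1 higher, with medians of -0.02 and -0.59. Over all genes, 6.07% and 7.29% were lower and 8.78% and 9.08% higher in these comparisons. Fosl1, an AP-1 subunit, had 20.4 FPKM in the localized, 7.55 in the invasive and 9.44 FPKM in the metastatic library. Foxq1, a forkhead factor, went the other way with 9.85, 33.1 and 29.1 FPKM.

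The regulators of the epithelial side were scarce in every library. Ovol1 (chr19:5549136-5560646, minus strand), which represses Zeb1 and other EMT factors, had 0.177 FPKM in the localized, 0.107 in the invasive and 0.245 FPKM in the metastatic library, from an estimated 22, 12 and 30 fragments. The ratio of metastatic over invasive was 2.29 (1.17 to 5.05), and both other ratios had counting intervals that include 1. Grhl2 (chr15:37233036-37363569, plus strand), an activator of Cdh1 and of claudin genes, had 0.0779, 0.0864 and 0.0964 FPKM from about 17, 17 and 20 fragments. No difference in Grhl2 was detectable at this depth, with a ratio of 1.11 (0.535 to 2.32) for invasive over localized. Esrp1 (chr4:11331933-11386783, minus strand), which directs epithelial splicing of transcripts such as Fgfr2, Cd44 and Ctnnd1, was at or under 1 estimated fragment in each library, with 0.00577 FPKM in the localized, 0 in the invasive and 0.00607 FPKM in the metastatic library. A count of 0 in the invasive library allows up to 3 fragments, which is 0.0199 FPKM for Esrp1. No fold is given for it, since all 3 values lie under that limit of 3 fragments.

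Among the Ovol, Esrp and Grhl genes, Esrp2 alone reached 1 FPKM. It had 0.798 FPKM in the localized, 2.17 in the invasive and 3.31 FPKM in the metastatic library, with a ratio of 2.72 (2.197 to 3.39) for invasive over localized and 4.15 (3.39 to 5.10) for metastatic over localized. On the log2(FPKM + 1) scale these were 0.82 and 1.26, so the second was past the threshold and the first was not. Ovol2 had 0, 0.0938 and 0.0445 FPKM in stage order, and Ovol3 had 0.0238, 0.0132 and 0 FPKM. Grhl1 had 0.0532, 0.111 and 0.203 FPKM and Grhl3 had 0.0252, 0.0186 and 0.0796 FPKM. The Ovol genes together summed to at most 0.289 FPKM and the Grhl genes to at most 0.379 FPKM, both in the metastatic library.

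Some other regulators of the epithelial state were abundant. Of 15 further epithelial regulators, 8 passed the filter, of which 5 were higher in the invasive and 6 higher in the metastatic library, each against the localized library, with 0 lower in either. Over all genes, 8.78% and 9.08% were higher in these comparisons. Of the 8, 1 (Esrp2) was under 1 FPKM in the localized library and passed through the other libraries, which largely sets its direction. Of the other 7, 5 were higher and 0 lower in each comparison with the localized library. The medians were 1.65 and 1.70 over the 8 regulators that passed, and 0.13 and 0.19 over all 15 without the filter. Elf3, an ETS factor of epithelia, had 7.20 FPKM in the localized, 102 in the invasive and 97.5 FPKM in the metastatic library. The related ETS factor Ehf had 16.7, 82.0 and 67.4 FPKM and the Krüppel-like factor Klf5 had 17.4, 56.2 and 65.4 FPKM. Foxa1, a pioneer factor of gut-derived epithelia, had 3.05, 11.8 and 10.8 FPKM, and Rbm47, an RNA-binding protein that promotes epithelial splicing, had 1.96, 10.0 and 13.9 FPKM. Klf4 (59.5, 43.5 and 35.4 FPKM) and Foxa2 (22.5, 17.7 and 12.4 FPKM) had their highest values in the localized library and were within 2-fold.

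**Figure D4:**
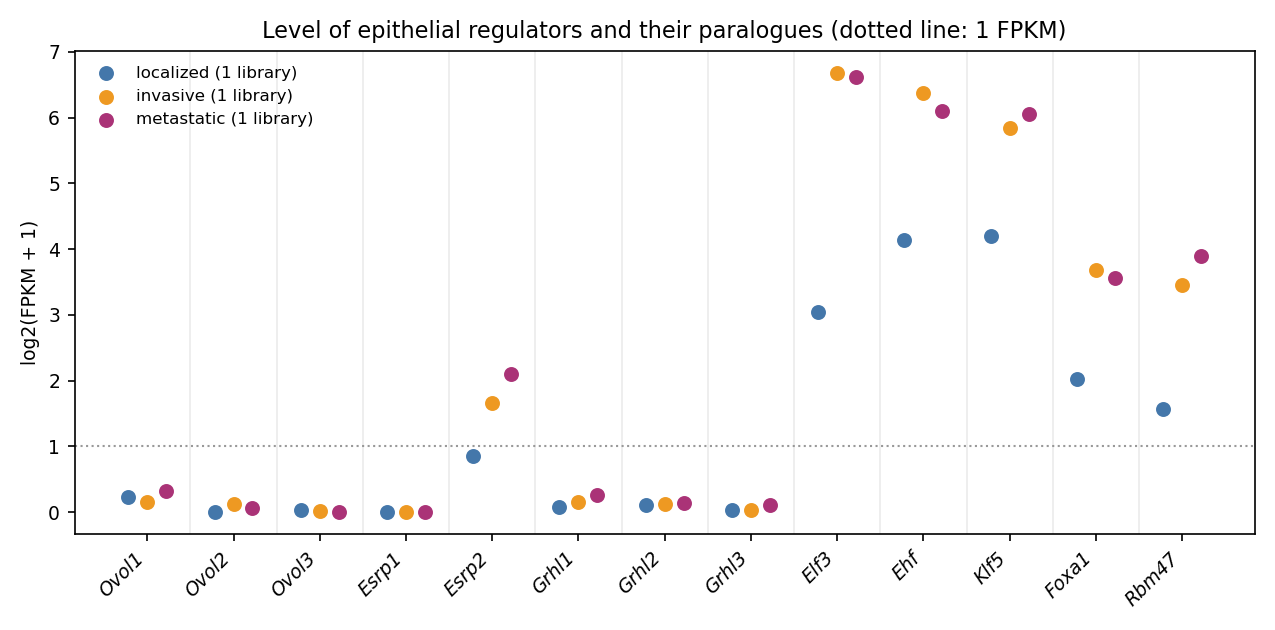
Level of the Ovol, Esrp and Grhl genes and of Elf3, Ehf, Klf5, Foxa1 and Rbm47 as log2(FPKM + 1) in the localized, invasive and metastatic libraries, with a dotted line at 1 FPKM. All Ovol and Grhl genes and Esrp1 lie under the line in every library, Esrp2 crosses it in the invasive and metastatic libraries, and Elf3, Ehf, Klf5, Foxa1 and Rbm47 are lowest in the localized library.

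Of 11 listed splicing factors in the table, for invasive against localized 1 was higher (Rbm47) and 1 lower (Mbnl1, with 75.2, 33.3 and 46.6 FPKM in stage order). Over all genes, 8.78% were higher and 6.07% lower in that comparison. For metastatic against localized 2 were higher (Rbm47 and Esrp2) and 0 lower, where 9.08% of all genes were higher and 7.29% lower. Esrp2 was under 1 FPKM in the localized library and passed the filter through the other libraries. Of 8 transcripts known as Esrp1 substrates 7 passed the filter, and Fgfr1 and Enah were lower in both comparisons with the localized library. The share of all genes that was lower for metastatic against localized was 7.29%. Fgfr1, a fibroblast growth factor receptor, had 42.7, 3.79 and 2.09 FPKM, and the actin regulator Enah had 7.34, 1.76 and 1.67 FPKM. Fgfr2 was scarce, with 0.136, 0.0386 and 0.227 FPKM. Gene-level values do not show which exons were used.

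Most of the counted genes that EMT factors are known to repress were higher in the invasive and metastatic libraries than in the localized library. Of 34 listed, 33 were in the table and 20 passed the filter. Over all genes, 8.78% were higher for invasive and 9.08% for metastatic against localized. For invasive against localized 16 were higher and 0 lower, with a median of 2.05. For metastatic against localized 17 were higher and 1, Pkp3, was lower, with a median of 1.95. For metastatic against invasive 1, Cldn3, was higher and 0 lower, where 1.33% of all genes were higher and 1.67% lower. All 8 epithelial markers are in this list. Of the 20 counted, 10 were under 1 FPKM in the localized library and passed through the other libraries, which largely sets their direction. Of the other 10, in each comparison with the localized library 7 were higher, with 0 lower for invasive and 1 lower for metastatic, and medians of 1.35 and 1.41. Without the filter the medians over all 33 were 0.94 and 1.28, and with a pseudocount of 0.1 those over the 20 were 3.35 and 3.14. Muc1, a cell-surface mucin, had 0.297 FPKM in the localized, 111 in the invasive and 112 FPKM in the metastatic library. The junction genes Tjp3 (0.367, 39.98 and 44.1 FPKM), Lsr (0.201, 26.0 and 22.1 FPKM) and Dsp (0.111, 19.9 and 14.9 FPKM) had similar spans, and Ocln was listed at 0 in the localized library with 14.1 and 17.6 FPKM in the others. Epcam, an epithelial adhesion molecule, was low throughout, with 0.209, 1.31 and 2.63 FPKM. Among the 33 were also genes close to 0 in all libraries, such as Ap1m2, an epithelial clathrin adaptor subunit, with 0.0141, 0 and 0 FPKM.

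Snail and Zeb factors bind the E-box CAGGTG, which reads CACCTG on the other strand. It was searched on both strands in RefSeq promoter windows of build GRCm38.p6, each running from 250 bases before to 50 bases after a start. The windows cover 27025 genes, 5 of the 10 regulators (Snai1, Twist1, Twist2, Zeb2 and Prrx1) and 22 of the 34 epithelial genes. The E-box was in at least 1 window of 19 of those 22 epithelial genes (86.4%), against 22.6% of all genes, and in 2 of 18 matched mesenchymal genes (11.1%). Among the regulators only Snai1 held it. The epithelial genes were listed as known to be repressed by EMT factors, some of which bind this E-box. Their high share is therefore not independent of how the list was chosen. Median GC content was 60.7% in the epithelial windows and 52.7% in all windows, and no allowance was made for this. The Grainyhead-like motif AACCNGTT was in 2 of the 22 epithelial genes (Muc1 and Rab25; 9.09%) and in 2.35% of all genes, and it overlapped the E-box in no window. Over all counted genes with a window, 13.2% of the 1723 with the E-box and 7.16% of the 6955 without it were higher in the invasive than in the localized library. The shares that were lower were 6.33% with it and 5.55% without it. A match of letters is a description and shows no binding.

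The windows of Snai1 and of 4 epithelial genes are shown because they place the E-box, in capitals, beside genes that went different ways. Crb3 (a polarity protein with 0.157, 3.005 and 2.17 FPKM in stage order), Ocln and Lsr were higher in the invasive and metastatic libraries, while Ap1m2 was close to 0 in all. The windows are chr2:167537945-167538244 on the plus strand for Snai1, chr17:57061951-57062250 on the plus strand for Crb3, chr13:100552669-100552968 on the minus strand for Ocln, chr7:30973420-30973719 on the minus strand for Lsr and chr9:21312284-21312583 on the minus strand for Ap1m2. Each is written 5′ to 3′ on the strand of its gene.
Snai1: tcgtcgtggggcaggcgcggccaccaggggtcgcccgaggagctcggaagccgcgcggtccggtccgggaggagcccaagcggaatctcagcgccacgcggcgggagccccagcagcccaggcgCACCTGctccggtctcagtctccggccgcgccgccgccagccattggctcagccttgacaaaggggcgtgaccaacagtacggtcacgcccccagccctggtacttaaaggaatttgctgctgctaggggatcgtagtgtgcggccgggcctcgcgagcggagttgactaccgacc
Crb3: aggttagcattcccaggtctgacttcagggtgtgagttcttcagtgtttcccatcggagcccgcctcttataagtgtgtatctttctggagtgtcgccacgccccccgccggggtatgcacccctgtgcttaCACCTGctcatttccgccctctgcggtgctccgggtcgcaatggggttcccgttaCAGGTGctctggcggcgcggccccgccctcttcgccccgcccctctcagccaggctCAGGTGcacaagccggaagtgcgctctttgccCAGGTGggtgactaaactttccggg
Ocln: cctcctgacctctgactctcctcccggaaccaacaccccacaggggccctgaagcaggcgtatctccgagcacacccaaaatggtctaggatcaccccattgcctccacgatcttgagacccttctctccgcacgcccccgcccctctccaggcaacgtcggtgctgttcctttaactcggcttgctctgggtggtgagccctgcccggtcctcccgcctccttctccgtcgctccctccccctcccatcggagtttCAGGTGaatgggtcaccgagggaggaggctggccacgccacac
Lsr: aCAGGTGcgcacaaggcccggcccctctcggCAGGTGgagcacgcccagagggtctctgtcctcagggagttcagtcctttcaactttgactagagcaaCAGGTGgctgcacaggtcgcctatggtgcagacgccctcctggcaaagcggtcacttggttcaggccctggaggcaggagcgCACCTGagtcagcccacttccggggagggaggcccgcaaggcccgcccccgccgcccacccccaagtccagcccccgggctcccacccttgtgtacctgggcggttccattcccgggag
Ap1m2: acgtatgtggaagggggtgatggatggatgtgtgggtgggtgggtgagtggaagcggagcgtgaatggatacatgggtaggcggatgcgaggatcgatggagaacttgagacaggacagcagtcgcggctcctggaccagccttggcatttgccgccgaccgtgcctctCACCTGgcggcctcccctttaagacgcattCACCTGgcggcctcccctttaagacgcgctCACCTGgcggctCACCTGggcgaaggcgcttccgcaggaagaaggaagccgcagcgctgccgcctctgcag
Crb3, Lsr and Ap1m2 each hold 4 E-boxes, and Snai1 and this window of Ocln hold 1 each. The E-box of Snai1 begins 126 bases before its start, and those of Crb3 begin 118, 63 and 7 bases before and at base 26 after the start. Crb3 has another window at chr17:57061981-57062280. The end of its printed window was not found in an annotated transcript of Crb3, unlike those of the other printed genes. The positions for Crb3 hold only for the start used here. In the invasive library Crb3 had 3.005, Lsr 26.0 and Ap1m2 0 FPKM. The printed genes were picked for going different ways, and a link between the number of E-boxes and the level was not tested.

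Mesenchymal genes were lower in the invasive and metastatic libraries for most of those that passed the filter, though not for all. Of 32 listed, 24 passed. For invasive against localized 15 were lower and 3 higher, with a median of -1.64, and for metastatic against localized 15 were lower and 1 higher, with a median of -2.08. Over all genes, 6.07% and 7.29% were lower and 8.78% and 9.08% higher in these comparisons. For metastatic against invasive 4 were lower and 0 higher, where 1.67% of all genes were lower and 1.33% higher. Of the 24, 4 (Dcn, Lox, Mmp2 and Mmp3) averaged under 1 FPKM in the invasive and metastatic libraries and 1 was under 1 FPKM in the localized library. The filter thus set the direction of their localized value against the average of the other libraries. It did not set every single comparison, such as that of Lox for invasive against localized. Of the other 19, 11 were lower in each comparison with the localized library, with 2 higher for invasive and 0 higher for metastatic, and medians of -1.27 and -1.57. The list shares 8 genes with the fibroblast markers, so it does not stand apart from them. Among intermediate-filament, cadherin and matrix genes often used to read EMT, Vim stayed within 2-fold with 3640 FPKM in the localized, 2231 in the invasive and 1853 FPKM in the metastatic library. Cdh2, the N-cadherin of mesenchymal cells, had 37.7, 17.3 and 24.0 FPKM and was called lower for invasive against localized, with a difference of -1.08, against -0.63 for metastatic against localized. Fn1, fibronectin, had 928, 285 and 171 FPKM and was lower in both comparisons with the localized library. Col1a2 (177, 33.4 and 0.0833 FPKM), Lox (74.0, 1.49 and 0.305 FPKM) and Dcn (54.4, 0.0710 and 0.0142 FPKM) had the largest negative differences for metastatic against localized. Nt5e, a surface nucleotidase used as a marker of mesenchymal stromal cells, went against the list with 0.501, 47.6 and 52.6 FPKM, and Loxl2 (20.4, 47.3 and 33.8 FPKM) was higher for invasive against localized.

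**Figure D5:**
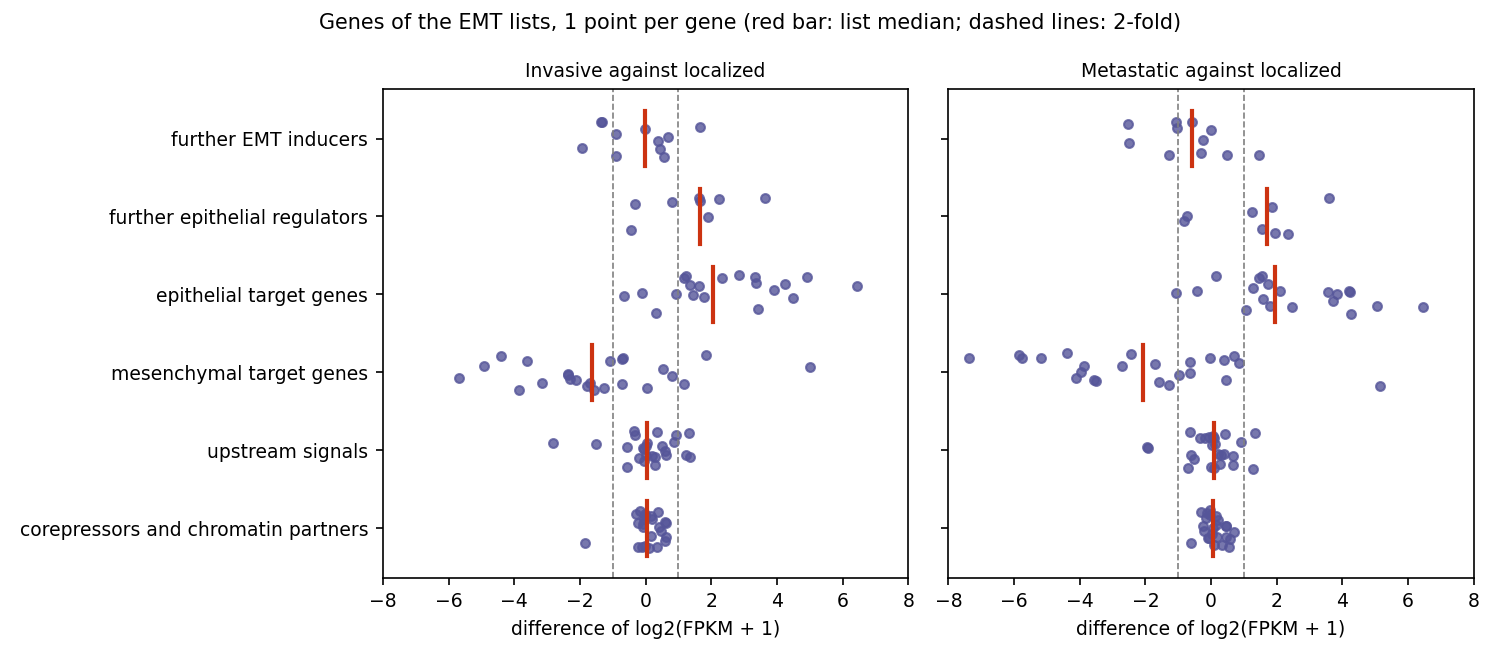
Difference of log2(FPKM + 1) for the genes of 6 lists that passed the filter, for the invasive library (left) and the metastatic library (right), each against the localized library, with 1 point for each gene, a red bar at the list median and dashed lines at 2-fold. Epithelial target genes lie mostly right of the lines, with medians of 2.05 and 1.95, mesenchymal target genes mostly left, with medians of -1.64 and -2.08, and corepressors near 0.

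Signals that act on these regulators differed for a few genes. Of 28 listed, 25 passed the filter. For invasive against localized 3 were higher and 2 lower, where 8.78% of all genes were higher and 6.07% lower, so the counts are close to those shares. The medians were 0.04 and 0.08 in the comparisons with the localized library. The ligand Tgfb1 had 60.3 FPKM in the localized, 85.0 in the invasive and 64.9 FPKM in the metastatic library. Tgfb3 had 10.3, 10.4 and 10.5 FPKM and Tgfb2 had 0.803, 1.41 and 0.632 FPKM, all within 2-fold or under the filter. The co-receptor Tgfbr3 was lower in both comparisons with the localized library, with 35.2, 4.08 and 8.54 FPKM, the same order as Twist1. Inhba, the activin A subunit, had 15.8, 4.89 and 3.37 FPKM. The receptors Egfr (2.77, 8.51 and 8.16 FPKM) and Notch1 (2.56, 8.16 and 5.64 FPKM) and the Notch ligand Jag1 (1.89, 5.83 and 6.24 FPKM) were higher for invasive against localized.

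The protein partners of the regulators were nearly level. All 24 listed corepressors and chromatin partners passed the filter. For invasive against localized 1 was lower and 0 higher, where 6.07% of all genes were lower and 8.78% higher. For metastatic against localized 0 were past 2-fold, where 7.29% of all genes were lower and 9.08% higher. The gene called was Wtip, a LIM protein of the Ajuba family that binds Snail factors, with 12.6 FPKM in the localized, 2.83 in the invasive and 10.4 FPKM in the metastatic library. It was also the only one called for metastatic against invasive, where it was higher, as were 1.33% of all genes. Of 17 regulators of protein stability, 15 passed. The only one called was Usp27x, a deubiquitinase of Snail, with 1.85, 7.59 and 4.23 FPKM, higher for invasive against localized. In that comparison 8.78% of all genes were higher, so 1 of 15 is close to that share.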

How the data were processed

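The authors deposited 1 table of FPKM values with a column for each of 3 libraries. FPKM is the unit per the name of the deposited table, and the lowest value in each column is exactly 0.1, so 0.1 was subtracted. Per the submitters' processing notes, the tools included Cufflinks 2.2.1, STAR 2.5.2a and FastQC 0.11.2, and the build was GRCm38; read layout and strand are not given in the sources used here. Of 22784 entries, 27 that held a date number and 23 genes of short RNAs were left out. Groups follow the stage label.

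Differences are in log2(FPKM + 1), called at 2-fold among genes with a mean of at least 1 FPKM. With 1 library per stage no test was run. Depth was estimated by scanning for the depth and length correction at which low values of genes with 1 annotated transcript (GENCODE M21) are whole fragments; 80.9% to 82.5% were within 0.1 of a whole number, against 19.9% to 21.4% on average over the scan. The method was tested on simulated data. Fragments of a gene use its longest coding transcript, so those of genes with several transcripts are approximate. Ratio intervals are exact conditional binomial (Clopper-Pearson) at 95%. Python 3.11.15, pandas 2.3.3 and scipy 1.17.1 were used.

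The regulators and all gene lists were chosen with earlier results of these data known. The text names the 10 regulators, up to 5 genes of each list with the largest difference, some fixed readouts such as Cdh1, Vim and Tgfb1, and the 3 genes nearest in pattern to each regulator that spans at least 1 on the log2 scale. Crb3, Ap1m2, Rab25, Loxl2, Mmp2, Klf4, Foxa2, Ovol3, Tcf3, Fgfr2, Fap, Pdgfra, Pdgfrb, Zeb2os, Krt8, Krt18, Krt19, Cldn4, Cldn7 and the single genes named in small counts were added after their values were seen. The E-box windows come from RefSeq. Some genes that the rule names are not reported here.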

Additional observations from a re-analysis of the deposited data

How the results depend on the processing

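Each count was recomputed with a pseudocount of 0.1, no filter on low values, a filter of 1 FPKM in at least 1 library, nothing subtracted, median-ratio rescaling, and calls at 1.5-fold and 4-fold. No regulator called at 2-fold changed sign under any of the 7 settings. For invasive against localized, 3 regulators were lower under every setting except the call at 1.5-fold, with 4. For metastatic against localized, 5 were lower at 1.5-fold. For metastatic against invasive, 0 were higher and 0 lower at 4-fold. Over all genes at 1.5-fold, 1727 were higher and 1361 lower for invasive against localized, with 1816 and 1607 for metastatic against localized, and 400 and 610 for metastatic against invasive. At 4-fold these counts were 360 and 252, 393 and 314, and 33 and 22. With a pseudocount of 0.1, 373 genes were lower for metastatic against invasive, and the differences of Snai1 and Prrx1 for metastatic against localized were -5.43 and -6.05. Of 672 recomputed list counts, 78 moved by over 1.5 times, most of them at the other thresholds. A split of the lists by whether genes reach 1 FPKM on both sides was chosen after seeing the data and moved 8 of 96 list counts; without a filter the median of the epithelial markers for metastatic against invasive was -0.09, against 0.10. No paired analysis was possible because each stage has 1 library. The lack of replicates limits every value, and counting error limits Ovol1, Esrp1 and Grhl2.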
